A study of Rattus norvegicus with 8 samples.

Results

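The probe sets described here measure the subunits of voltage-gated and ligand-gated ion channels, taken by gene symbol. A probe set is a group of short probes on the chip that is summarised to 1 value for a transcript. Members were all probe sets whose single annotated symbol begins with Kcn, Scn, Cacn, Hcn, Clcn, Chrn, P2rx or Gabr, with Trp and a following a, c, m or v, or with Gri and a following a, d, k or n. The symbols gave 301 of 31142 probe sets, 263 of them from chip A and 38 from chip B, for 198 genes. Chip A carries 195 of these genes, chip B 33, and 30 are on both. The rule uses symbols only and no level or change, but it was chosen with earlier results of these data known. The members fall into 17 subfamilies, and 3 further genes (Grina, Trpc4ap and Scnm1) match a prefix although their products are not channel subunits. These 3 are included in the counts of channel genes and channel probe sets below, except those given for a subfamily.

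RNA came from PC12, a rat pheochromocytoma line, that is, a tumour line of the chromaffin cells of the adrenal medulla. The treated cells received forskolin, a plant compound that switches on adenylyl cyclase and so raises cyclic AMP. The series title calls the comparison group an inactive control, and the labels of its arrays say no forskolin. Each chip carried 2 forskolin arrays and 2 arrays without it, and neither dose nor exposure time is given in the sources used here. PC12 is 1 clonal line, and nothing in the labels says that replicates are separate cultures, so p-values measure only the spread between these arrays, which may be technical. Values are the authors' log2 expression levels, and the log base was inferred from their range. Each chip was tested on its own, on probe sets whose mean linear value reached the 30th percentile of the chip, a log2 level of 7.02 for chip A and 6.02 for chip B. The test was limma's, and p-values were adjusted after Benjamini and Hochberg across every tested probe set of the chip. A call is an adjusted p under 0.05.

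Ion channels set the membrane potential of an excitable cell and turn changes of it into calcium entry. In chromaffin cells, acetylcholine opens nicotinic receptors, the membrane depolarises, sodium and calcium channels open, and calcium triggers the release of catecholamines, while potassium channels bring the potential back. Cyclic AMP acts on these proteins mainly after they are made: it binds HCN channels directly, and protein kinase A phosphorylates calcium, sodium and potassium channels. It can also act on transcription, through CREB, which binds the cyclic AMP response element TGACGTCA or its short form, TGACG.

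Because that element is where a transcriptional response to cyclic AMP could be read in sequence, the 250 bases before each RefSeq gene start (assembly GRCr8) were searched for it on both strands. Windows were found for 145 of the 198 channel genes, 158 windows in all. The full element lay in the window of 1 channel gene, Clcn3, or 0.69% of the 145 genes, against 1.78% of 27457 genes in the whole table. The half-site, which is also part of every full element, lay in the windows of 32 channel genes (22.1%), against 20.0% of all genes. The 3 windows below show, 5′ to 3′, Clcn3 as the channel gene with the full element, Grin1 as a channel gene with half-sites only, and Dusp1 as a gene outside the channels that also has the full element and rose strongly. Dusp1 was chosen with its rise known, from 490 genes with the full element. How many of those genes rose was not counted. Capitals mark TGACGTCA, TGACG and its reverse complement CGTCA.
Clcn3: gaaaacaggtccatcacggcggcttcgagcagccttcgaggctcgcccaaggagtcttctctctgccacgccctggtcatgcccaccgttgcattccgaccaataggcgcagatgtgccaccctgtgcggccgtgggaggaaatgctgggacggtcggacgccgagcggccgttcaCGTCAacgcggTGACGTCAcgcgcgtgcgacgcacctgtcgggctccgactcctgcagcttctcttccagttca
Grin1: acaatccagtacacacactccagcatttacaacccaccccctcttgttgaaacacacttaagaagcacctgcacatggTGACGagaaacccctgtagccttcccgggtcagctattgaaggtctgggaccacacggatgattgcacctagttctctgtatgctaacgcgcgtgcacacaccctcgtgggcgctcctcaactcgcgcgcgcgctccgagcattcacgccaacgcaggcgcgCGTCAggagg
Dusp1: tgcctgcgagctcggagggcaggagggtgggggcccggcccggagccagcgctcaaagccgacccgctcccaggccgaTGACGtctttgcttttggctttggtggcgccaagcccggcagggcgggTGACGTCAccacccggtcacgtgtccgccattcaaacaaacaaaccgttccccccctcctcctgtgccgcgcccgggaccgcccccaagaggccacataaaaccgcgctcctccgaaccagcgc

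The Clcn3 window is chr16:34137754-34138003 on the plus strand, and its full element begins 63 bases before the start site. A second Clcn3 start in the table has no match in its window. The Grin1 window is chr3:28528755-28529004 on the minus strand, and the Dusp1 window is chr10:17184603-17184852 on the plus strand with the element beginning 124 bases before the start. A match describes letters in these windows and not a bound site.

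No ion channel probe set was called on either chip. On chip A, limma called 0 of 116 tested channel probe sets higher and 0 lower, where 2.03% of all 11106 tested probe sets were called higher and 1.26% lower. On chip B, 0 of 27 were called in either direction, where 0.15% of 10693 were called higher and 0.00935% lower. At an unadjusted p under 0.05, 8 channel probe sets (6.90%) were higher and 5 (4.31%) lower on chip A, where the shares of all tested probe sets were 7.1% and 10.3%. Of the 5 lower, 1 was Scnm1, which is not a channel subunit. On chip B the count was 0 in both directions, where the shares of all were 1.64% and 3.33%. The treatment label was checked on 9 genes taken as markers of a cyclic AMP response. This list was chosen with earlier results of these data known, so its count is no independent measure of the response. All 9 had a probe set that rose on chip A (limma), and the 3 of them tested on chip B rose there too. Dusp1 was up by 3.24 and 4.17 (log2) on its 2 probe sets of chip A.

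The measured changes of the tested channel probe sets were small. The largest change among channel probe sets was 1.17-fold on chip A and 1.15-fold on chip B, where the largest among the other tested probe sets were 17.99-fold and 7.80-fold. On chip A the 95% intervals of 109 of 116 channel probe sets (94.0%) lay wholly within 1.2-fold in either direction, against 92.4% of the other tested probe sets, and those of all 116 lay within 1.5-fold. On chip B, whose arrays were noisier, 13 of 27 intervals lay within 1.2-fold and all 27 within 1.5-fold. The interval that reached farthest from no change did so at 1.27-fold on chip A and 1.34-fold on chip B. Each interval holds for 1 probe set and is not widened for their number. It describes the values of 2 arrays per group, and whether background altered the size of a change could not be checked. The 87 genes without a tested probe set have no interval. The median change was 0.0035 (log2) over the channel probe sets of chip A, against -0.0083 over the other tested probe sets, and 0.017 against -0.026 on chip B.

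**Figure D1:**
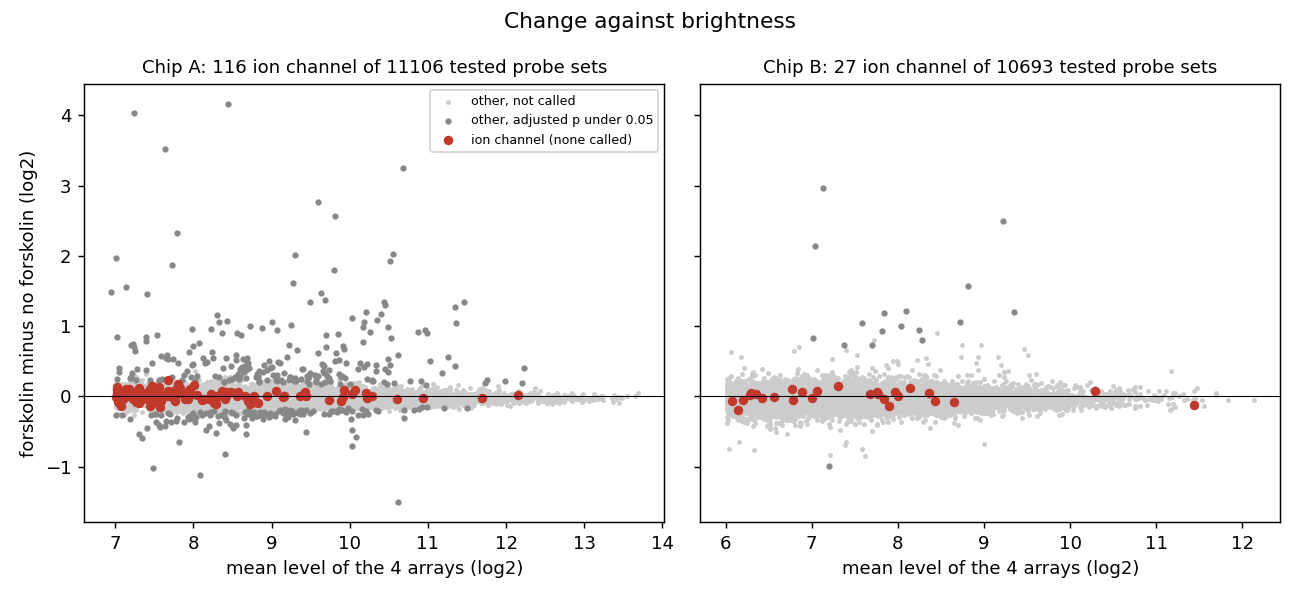
Change (forskolin minus no forskolin, log2) against the mean level of the 4 arrays (log2) for each tested probe set of chip A (left) and chip B (right), with the 116 and 27 ion channel probe sets in red and called other probe sets in dark grey. The channel probe sets lie in the band around 0, and most of those of chip A lie at its dim end.

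Channel probe sets were dim. On chip A only 116 of 263 (44.1%) passed the filter, against 73.8% of the other probe sets with 1 gene symbol, and the median channel probe set lay at percentile 27.5 of the chip's levels without forskolin. Only 13 of the 263 (4.94%) lay at percentile 75 of the chip or above, and 2 of these were prefix matches that are not channel subunits. On chip B, 27 of 38 (71.1%) passed, against 78.5% of the others with 1 symbol. At least 1 probe set was tested for 111 of the 198 genes, and 87 genes had none. Among the untested members the differences ran from -0.21 to 0.18 (log2) on chip A and from -0.18 to 0.10 on chip B. Brightness also depends on the probes: in the 48 genes with several probe sets on chip A, the probe sets of a gene differed in level by a median of 1.27 (log2) and by up to 3.53 (Kcna6), and in 25 of these genes some passed the filter and others did not. A percentile therefore places a probe set on its chip and gives no order of transcript abundance between genes, and a dim probe set does not show that a channel is absent.

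**Figure D2:**
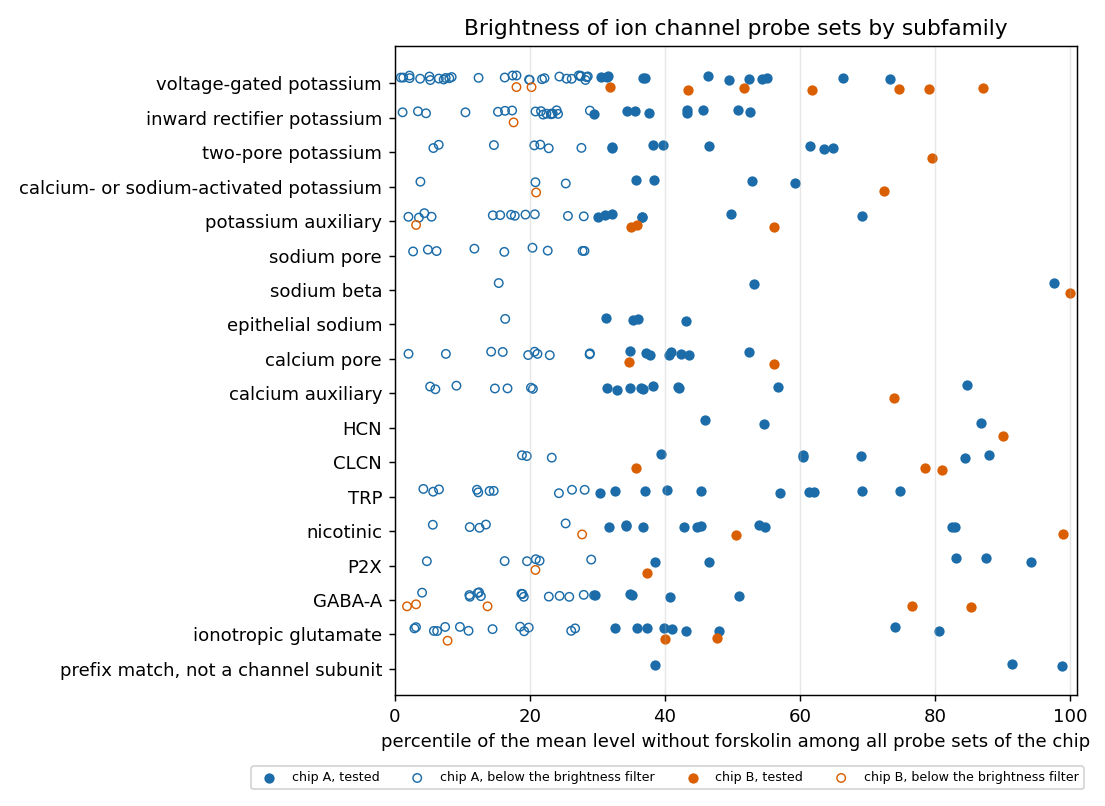
Percentile of the mean level without forskolin among all probe sets of the chip (x axis), 1 point per ion channel probe set, by subfamily (rows), chip A in blue and chip B in orange, filled where tested and open where below the brightness filter. All 9 sodium pore probe sets are open points, while Scn3b, among the sodium beta subunits, lies at percentile 97.7 on chip A and near the top of chip B.

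The bright members included alpha subunits of the nicotinic receptors by which chromaffin cells are excited. Chrna3, the alpha subunit of the ganglionic nicotinic receptor, had levels of 9.89 and 9.93 (log2) with forskolin, against 9.89 and 9.93 without it. The groups covered nearly the same range, and the change was -0.0016 with a 95% interval of -0.089 to 0.086 (limma adjusted p = 0.993). Chrna7, the subunit of the homomeric nicotinic receptor that passes calcium, had 9.95 and 10.004 with forskolin and 9.84 and 9.92 without it on chip A, and 10.29 and 10.35 with forskolin and 10.22 and 10.28 without it on chip B. Both forskolin arrays were above both others on each chip, by only 0.095 and 0.070 on average (log2), and neither difference was called (limma adjusted p = 0.301 and 1.00). Of the partner subunits that assemble with Chrna3, Chrna5 measured 0.038, Chrnb4 0.047 and Chrnb2 0.045 (log2 change, chip A), with overlapping groups. These partners were not bright, at percentiles 42.8, 44.8 and 31.7 of chip A, where Chrna3 lay at 83.0. Chrnb4 measured -0.049 on chip B. Over the 11 tested nicotinic probe sets of chip A, 8 had a change above 0 and 3 below, between -0.04 and 0.11. Of all tested probe sets on that chip, 45.0% were above 0.

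P2rx2, a subunit of ATP-gated cation channels, was bright on each of its 3 probe sets, at percentiles 83.1, 87.5 and 94.2 of chip A. The brightest had 10.90 and 10.96 with forskolin and 10.91 and 10.99 without it (log2). Its groups overlapped. The 3 probe sets measured -0.020, -0.029 and -0.065 (log2), with limma adjusted p between 0.442 and 0.852. P2rx3, a subunit that pairs with P2rx2 in sensory neurons, had 7.39 and 7.45 with forskolin and 7.53 and 7.50 without it, a change of -0.095, and P2rx4 measured -0.041. A second P2rx3 probe set, below the filter and not tested, differed by 0.16 in the other direction. All 5 tested P2X probe sets of chip A were below 0 without a call, while the 1 tested on chip B (P2rx1) measured 0.036. Among all tested probe sets of chip A, 45.0% were above 0. Without forskolin replicate 1, or without no forskolin replicate 2, 1 of the 5 was above 0.

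The probe sets of sodium channel pores were dim, while those of 1 auxiliary subunit, Scn3b, were bright. Of the 3 probe sets for auxiliary (beta) subunits on chip A, whose median lay at percentile 53.2, 2 passed the filter. None of the 9 pore-forming alpha subunit probe sets, all on chip A, passed the filter, and their median lay at percentile 16.2. Scn9a, the alpha subunit best known from nociceptors and sympathetic neurons, had 5.54 and 5.43 with forskolin and 5.68 and 5.72 without it (log2), the largest difference among the untested members at -0.21. Both its forskolin arrays were lower, at a level under the filter and with no test. Scn2a and Scn3a, alpha subunits of central neurons, differed by 0.072 and 0.036, also untested. Scn3b, a beta subunit that modulates gating and surface delivery, had 11.66 and 11.72 with forskolin and 11.67 and 11.74 without it on chip A. Its change there was -0.016 with an interval of -0.097 to 0.066 (limma adjusted p = 0.870). On chip B it had 11.41 and 11.35 with forskolin and 11.50 and 11.51 without it, a change of -0.12 with adjusted p = 0.977. Scn4b, another beta subunit, had 8.22 and 8.27 with forskolin and 8.34 and 8.35 without it, a change of -0.10 (adjusted p = 0.261). Of the epithelial sodium channel, Scnn1b measured 0.12 (adjusted p = 0.233), and the other 3 tested probe sets of this subfamily were below 0.

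No pore-forming calcium channel subunit was called. Cacna1b, which forms the N-type channel of secretory and presynaptic terminals, had 8.29 and 8.32 with forskolin and 8.28 and 8.34 without it on its brighter probe set, and its 2 probe sets measured -0.0047 and -0.0026 (log2). Cacna1a, of the P/Q-type channel, measured 0.021 and -0.0079 on chip A and -0.054 on chip B. Cacna1c measured -0.0064 on its tested probe set, and the probe sets of Cacna1d, the other L-type subunit of chromaffin cells, were below the filter. The brightest of these had 7.01 and 7.15 with forskolin and 6.99 and 6.86 without it, a difference of 0.16 with no test. Cacna1h, a T-type subunit, had 7.24 and 6.96 with forskolin and 7.02 in both arrays without it on chip B, a change of 0.080 with overlapping groups, and was below the filter on chip A. Cacna1f, an L-type subunit known from the retina, had 7.49 and 7.51 with forskolin and 7.66 and 7.63 without it. These groups did not overlap, and the change of -0.15 was not called (interval -0.25 to -0.044, limma adjusted p = 0.144). Over the 8 tested probe sets of this subfamily on chip A, 2 were above 0 and 6 below, where 45.0% of all tested probe sets were above 0.

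Auxiliary calcium channel subunits lay mostly on the other side of 0. These are the cytoplasmic beta subunits (Cacnb), the alpha-2-delta subunits (Cacna2d) and the gamma subunits (Cacng), several of which traffic AMPA receptors instead. Of 10 tested probe sets on chip A, 9 had a change above 0, where 45.0% of all tested probe sets on the chip did so. Most of the 10 lay in the dimmest quartile of tested probe sets, where 56.6% of the probe sets outside the channels were above 0. Both forskolin arrays were above both others in 8 of the 10, where 20.4% of all tested probe sets on the chip did so. The median was 0.093 (log2). At an unadjusted p under 0.05, 4 were higher, where 7.1% of all tested probe sets were, and none was called. Cacng2 (stargazin) had 7.86 and 7.91 with forskolin and 7.70 and 7.73 without it, a change of 0.17 with an interval of 0.069 to 0.28 (limma adjusted p = 0.0961). Its second probe set measured -0.0040 with overlapping groups, so the 2 probe sets of this gene differed by 0.18, the widest gap among the 26 genes with several tested probe sets. Cacnb1 measured 0.15 on chip A (adjusted p = 0.227) and 0.060 on chip B, and Cacng7 0.13 (adjusted p = 0.244). Cacnb3, a beta subunit of neuronal channels and the brightest of the group at percentile 84.7, had 10.09 and 10.14 with forskolin and 10.01 and 10.04 without it, a change of 0.093 (adjusted p = 0.258). The other 9 probe sets lay at percentile 56.8 or lower. The count above 0 was 9 or 10 of 10 under each alternative that tested all 10 (the stricter filter tested 2, both above 0).

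**Figure D3:**
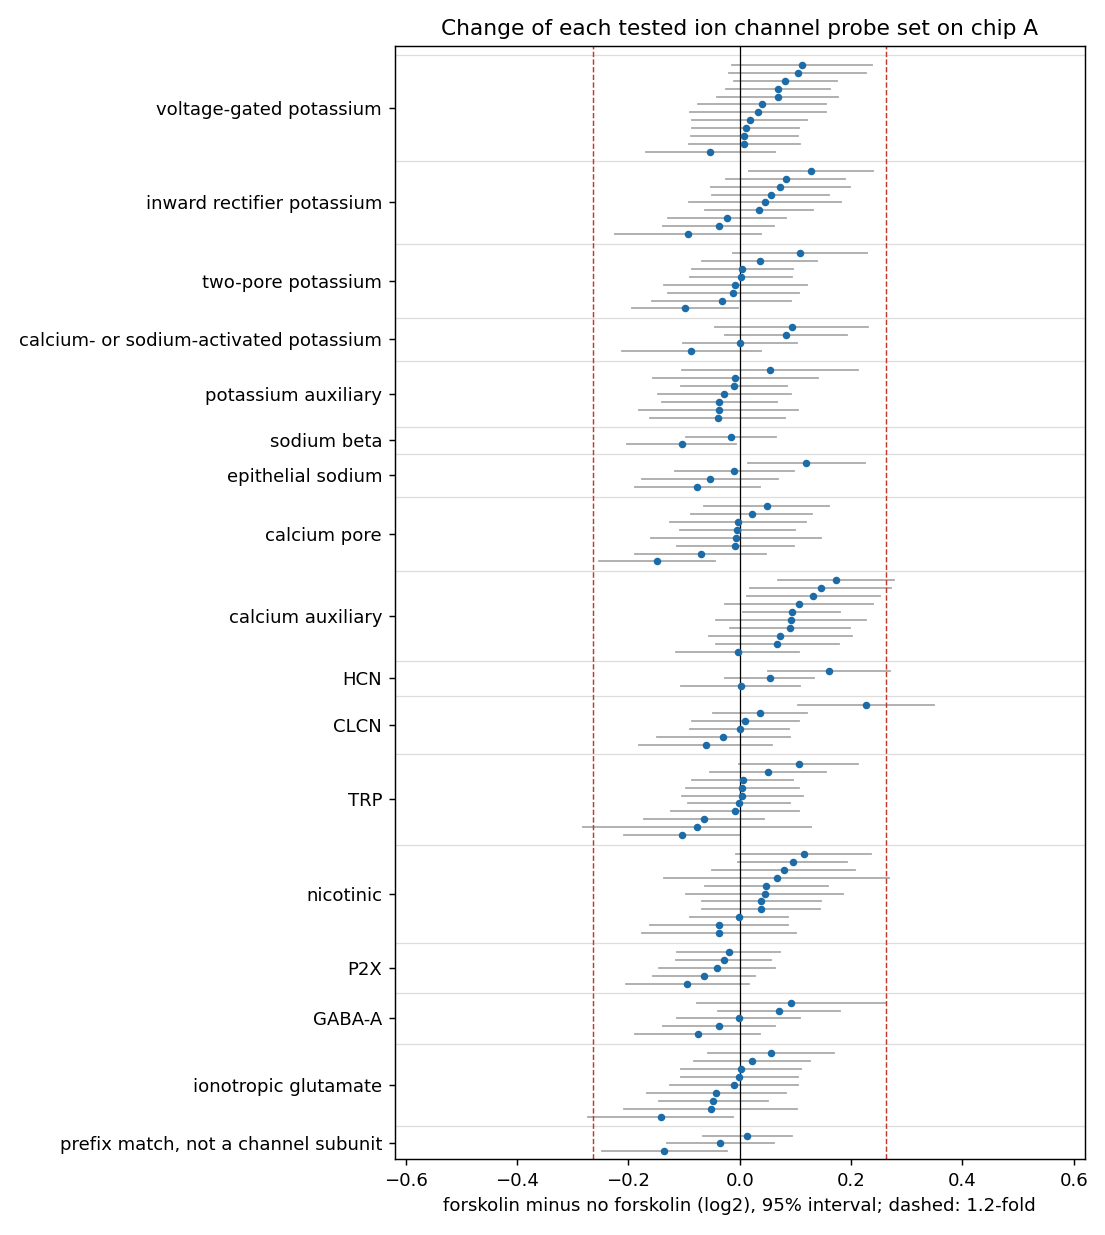
Change (forskolin minus no forskolin, log2) of each tested ion channel probe set on chip A with its 95% interval, by subfamily, with dashed lines at 1.2-fold. Most intervals include 0, and Clcn2, in the CLCN row, has the largest change at 0.23.

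Clcn2, a chloride channel opened by hyperpolarisation, came closest to a call. It had 7.74 and 7.83 with forskolin and 7.52 and 7.60 without it (log2), at percentile 39.4 of the chip. Both forskolin arrays were above both others, by 0.23 ± 0.053 on average (log2, SE, n = 2), with an interval of 0.10 to 0.35 (limma adjusted p = 0.0672). It passed the threshold with each array centred on its median (adjusted p = 0.0228) and without no forskolin replicate 2 (0.0265), while leaving out forskolin replicate 2 gave 0.228. Clcn3, a chloride-proton exchanger of endosomes and secretory vesicles and the channel gene with the full cyclic AMP response element printed above, had 10.26 and 10.30 with forskolin and 10.25 and 10.31 without it on its brightest probe set. The groups overlapped there, and its 3 probe sets on chip A measured -0.00012, 0.0099 and 0.036, each interval lying within 1.2-fold. On chip B Clcn3 measured 0.12 with an interval of -0.14 to 0.39. Dusp1, with the same element and chosen with its rise known, rose by 3.24 (log2, limma adjusted p = 4.65e-10) on the probe set that lay at percentile 67.1 without forskolin. Over the 22 channel genes with a tested probe set and a half-site in the window, 31 tested probe sets of both chips ran from -0.095 to 0.12, with 14 above 0 and 0 called by limma. For comparison, limma called 2.03% of all tested probe sets higher and 1.26% lower on chip A, and 0.15% and 0.00935% on chip B. At these call rates 0 of 31 does not set the half-site channel genes apart. The shares of all tested probe sets above 0 were 45.0% (chip A) and 38.1% (chip B). Other genes with a half-site were not compared.

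The HCN channels carry the pacemaker current and bind cyclic AMP themselves. Hcn2 lay at percentile 86.9 of chip A and had 10.24 in both forskolin arrays, against 10.18 in both others. The groups did not overlap, and the change was 0.054 with an interval of -0.026 to 0.13 (limma adjusted p = 0.465). Hcn4 had 8.04 and 8.13 with forskolin and 7.92 and 7.93 without it, a change of 0.16 with an interval of 0.050 to 0.27 (adjusted p = 0.136). Hcn3 measured 0.0014 on chip A and -0.077 on chip B. All 3 genes passed the filter on chip A.

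**Figure D4:**
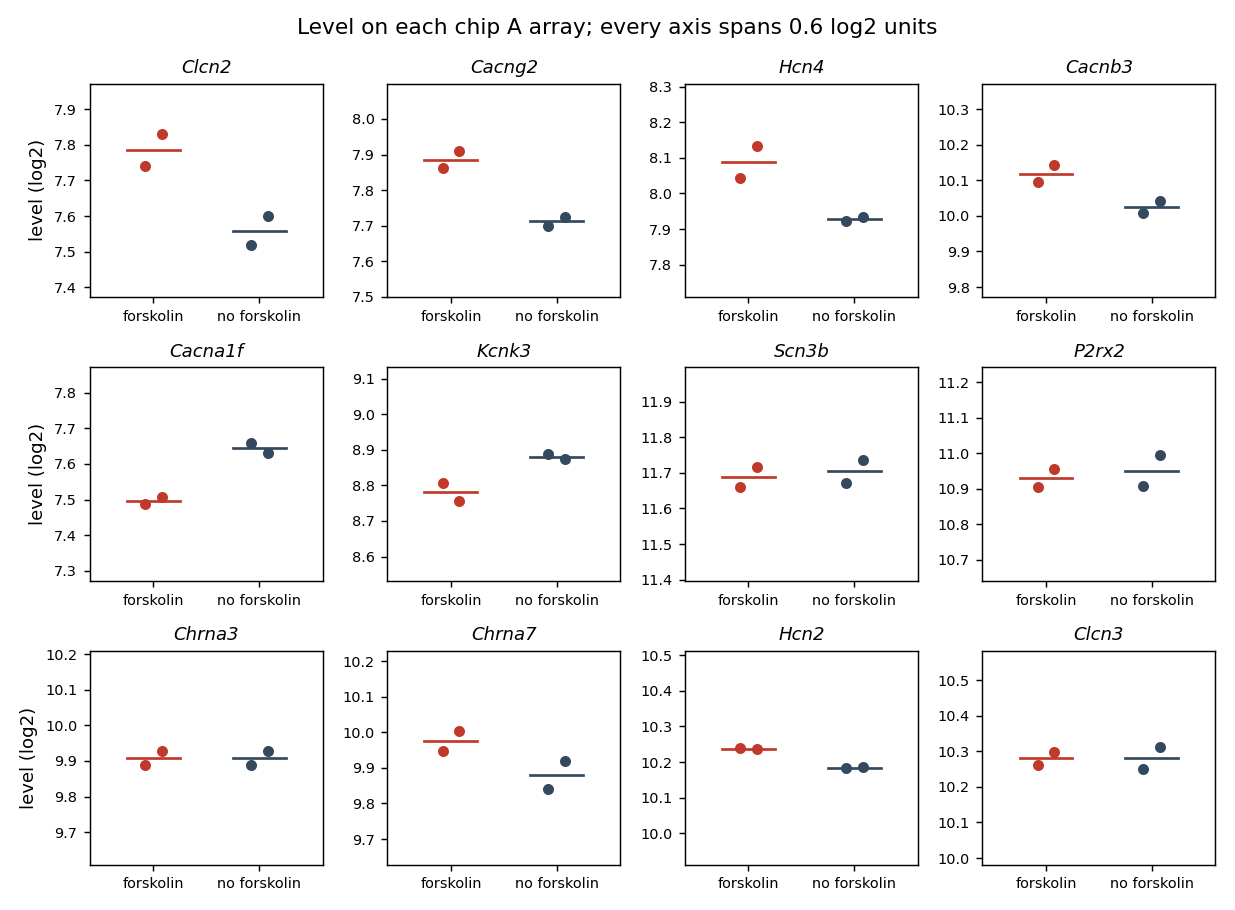
Level (log2) of 12 ion channel probe sets on each chip A array, forskolin at left and no forskolin at right, with points for arrays and a bar for the mean of the 2 arrays, on axes that each span 0.6 log2 units. In the upper row both forskolin points lie above both others by less than 0.3, Cacna1f and Kcnk3 lie lower with forskolin, and the Scn3b, P2rx2, Chrna3 and Clcn3 groups overlap.

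Potassium channels were the most numerous members. Of the 41 probe sets for voltage-gated pore subunits on chip A, 12 were tested, with changes between -0.05 and 0.11 (log2). Of these 12, 11 were above 0, where 45.0% of all tested probe sets on the chip were. At an unadjusted p under 0.05 the count was 0. Without forskolin replicate 1, or without no forskolin replicate 1, 9 of 12 were above 0. On chip B, 3 of 7 were above 0, where 38.1% of all tested probe sets were. Kcnc4, a subunit of a rapidly inactivating A-type current, had 9.09 and 9.10 with forskolin and 8.99 and 9.04 without it on chip A, and 7.41 and 7.36 with forskolin and 7.22 and 7.24 without it on chip B. Its groups did not overlap on either chip, and the changes of 0.082 and 0.15 were not called (limma adjusted p = 0.338 and 0.977). Kcnq3, a subunit of the M current that cells close with muscarinic signals, measured 0.11 (adjusted p = 0.337), Kcnh2, of the ERG current, 0.069, and Kcnh3, the brightest of the subfamily on chip A at percentile 73.3, 0.0084. Kcnq5, another M current subunit and the brightest of the subfamily on chip B, had 8.44 and 8.36 with forskolin and 8.34 and 8.59 without it, a change of -0.063 with overlapping groups. Kcna2, a subunit of the axonal delayed rectifier, measured 0.040 on chip A, and its chip B probe set, below the filter, differed by -0.18 with no test. Kcna5, Kcnc1 and Kcnd2, further voltage-gated subunits, had no tested probe set.

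Among potassium channels that set the resting potential, Kcnk3, a two-pore channel closed by acid and by receptors coupled to Gq, had 8.81 and 8.76 with forskolin and 8.89 and 8.87 without it on its brightest probe set. The change was -0.098 (limma adjusted p = 0.273), and its other 2 probe sets measured -0.012 and -0.033 with overlapping groups. Kcnk6 measured 0.0026 and 0.0044 on its 2 probe sets. Kcnk2, a channel of the same family opened by membrane stretch, measured 0.0040 on chip B, and Kcnk1 was below the filter. Kcnj9, a subunit of the inward rectifiers opened by G proteins, measured 0.13 (adjusted p = 0.226) on a probe set near the filter, at percentile 29.5 without forskolin. Its mean without forskolin, 6.96, lay under the filter level of 7.02, and its mean with forskolin was 7.09. The Kcnj9 probe set was therefore tested only through its higher group. Kcnj4, a strong inward rectifier and the brightest of its subfamily, measured -0.092 with overlapping groups. Of the calcium-activated channels, Kcnma1, the pore of the BK channel of chromaffin cells, measured 0.082 on its tested probe set, and Kcnn1, of the SK family, 0.00026. Kcnn3, of the same family, measured -0.087 (limma adjusted p = 0.451), and Kcnt1, a sodium-activated channel, 0.093 on chip A and 0.038 on chip B. Of the 7 tested probe sets for auxiliary potassium subunits on chip A, from 6 genes, 6 were below 0 and 1 above. Of all tested probe sets on the chip, 45.0% were above 0. The 7 auxiliary probe sets ranged from -0.04 to 0.05 (log2). Among them Kcnip3, a calcium-binding partner of A-type channels and the brightest, measured -0.011, and Kcnab2, a cytoplasmic beta subunit, -0.037. Kcne4, a single-pass modulator of potassium channels, measured -0.017 on chip B, and Kcnmb4, a beta subunit of the BK channel, was below the filter. Kcnip1, which binds voltage-gated channels of the A-type current, had 6.11 and 5.98 with forskolin and 6.21 and 6.28 without it on chip B. That difference of -0.20 was the largest of the 27 tested there, with an interval of -0.42 to 0.024 (adjusted p = 0.977).

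Receptors for the fast brain transmitters were mostly dim. Of 22 ionotropic glutamate probe sets on chip A 9 passed the filter, and of 19 GABA-A receptor probe sets 5 did. Grin1, the obligatory subunit of NMDA receptors, had 9.49 and 9.44 with forskolin and 9.34 and 9.47 without it, a change of 0.056 with overlapping groups (limma adjusted p = 0.608). Grin2c, at percentile 80.7, measured -0.047. Grin3b had 7.05 and 6.95 with forskolin and 7.11 and 7.18 without it on chip A, a change of -0.14 (adjusted p = 0.245), and -0.021 on chip B. Its chip A mean lay under the filter level of 7.02 with forskolin and above that level without it. The Grin3b probe set of chip A was therefore tested only through its higher group, like that of Kcnj9. Of AMPA receptor subunits, Gria2 measured 0.0024 on its tested probe set and Gria4 0.11 on chip B with overlapping groups. Grik5, a kainate receptor subunit, measured -0.010. Gabrr2, the brightest GABA-A receptor member on chip A, measured -0.037, and Gabrg3, with the smallest p of that subfamily, -0.076 (adjusted p = 0.466). Gabrd, the delta subunit of GABA-A receptors outside synapses, measured 0.052 and -0.034 on its 2 probe sets of chip B. Of the 10 tested TRP channel probe sets, 5 were above 0 and 5 below. Trpm7 (an ion channel fused to a kinase) measured 0.0054 at percentile 74.9, and -0.076 with overlapping groups on its second probe set. Trpc1, at percentile 69.1, measured -0.0011. Trpc2, a pheromone-sensing channel of the rodent vomeronasal organ, measured -0.10 (adjusted p = 0.287). Trpv2, a channel opened by noxious heat in vitro, measured 0.050, and Trpc5 was below the filter.

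Of the 3 prefix matches that are not channel subunits, Grina and Trpc4ap were bright, at percentiles 98.8 and 91.5, and measured 0.013 and -0.035. Scnm1, a splicing factor, measured -0.14 (limma adjusted p = 0.206).

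Changes were also set beside those of other probe sets of like brightness. Tested probe sets of each chip were split into quartiles of brightness. On chip A, 71 of the 116 channel probe sets were in the dimmest quartile, with a median change of 0.021 (log2) against 0.012 for the other 2706 probe sets of that quartile. In the brightest quartile 12 channel probe sets had a median of -0.00085, against -0.022 for 2765 others. The share above 0 in the dimmest quartile, where most channel probe sets lay, was 54.9% for the channels and 56.6% for the others. In the next 3 quartiles of chip A it was 52.0%, 62.5% and 41.7% for 25, 8 and 12 channel probe sets, against 48.3%, 40.9% and 34.3% for the others. Without regard to brightness the shares were 53.4% for the channels and 44.9% for the others on chip A, and 55.6% and 38.0% on chip B. Both forskolin arrays lay above both others in 30 of the 116 channel probe sets and below them in 15, where 20.4% and 28.0% of all tested probe sets did so. On chip B these counts were 2 and 2 of 27, where the shares of all were 10.4% and 22.2%. The probe sets called elsewhere on chip A were spread over brightness, with 2.62% of the others called in the dimmest quartile and 3.22% in the brightest. These figures are a description and were not tested.

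**Figure D5:**
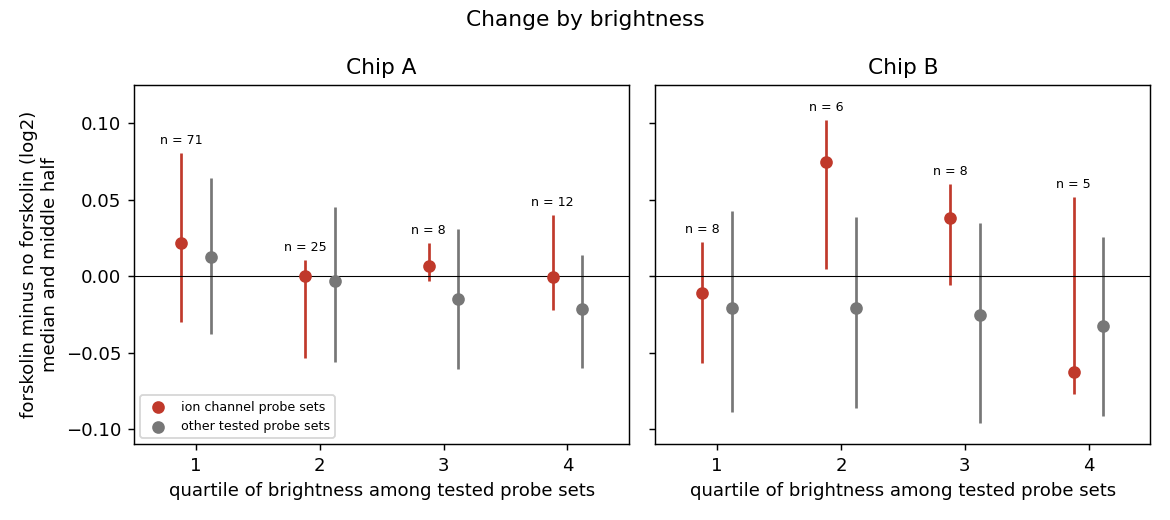
Median change (forskolin minus no forskolin, log2; points) and interquartile range (bars) in each quartile of brightness, for ion channel probe sets in red with their number and other tested probe sets in grey, on chip A (left) and chip B (right). On chip A the medians of both sets lie within 0.03 of 0 in each quartile, and on chip B the channel medians rest on 5 to 8 probe sets each.

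Several probe sets of a gene gave a further view of the error. The 26 channel genes with several tested probe sets showed 1 direction in 15 and both directions in 11, and the changes within a gene differed by a median of 0.080 (log2). In 14 of these genes the probe sets came from both chips. The median 95% half-width of a channel probe set was 0.11 on chip A and 0.21 on chip B. A list of 48 other genes that handle the same ions (pumps, exchangers, intracellular calcium channels, store-operated entry, scaffolds and further chloride channels) had 33 genes tested on chip A and 15 on chip B. Limma called 0 of their 46 and 23 tested probe sets, and at an unadjusted p under 0.05 it gave 0 higher and 5 lower of the 46 on chip A, where 10.3% of all tested probe sets were lower, and 0 on chip B.

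The 12 chromaffin marker probe sets of chip A lay between percentiles 24.9 and 98.5 with a median of 73.1, and those of Dbh and Slc18a1 were below the filter. The fibroblast markers ran from 9.97 to 98.0 with a median of 36.3, those of glia from 25.2 to 38.7, those of adrenal cortex from 11.1 to 36.2, and those of blood and endothelium from 2.83 to 52.4. On chip B, Mbp, a glial marker, lay at 89.5 and Kdr, an endothelial marker, at 45.7. Of the chromaffin list, Hand2 and Phox2a rose on chip A (limma) and the other 6 genes tested there were not called. None of the tested markers of fibroblasts (3 of 6 listed genes tested on chip A), glia (2 of 6), adrenal cortex (1 of 6) or blood and endothelium (2 of 6) was called. The fibroblast markers summed to 12.38 and 12.42 with forskolin and 12.36 and 12.38 without it (log2 of the sum), and their part in the channel results was not tested. In bulk RNA, fewer cells of a type and less RNA per cell cannot be told apart. The array medians of a chip lay within 0.025 of each other (log2).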

How the data were processed

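The analysis used 8 microarrays, in 4 groups of 2 by chip and treatment. The deposited tables hold log2 values, 1 per probe set and array. No label or header says how the authors made them, and neither background nor detection could be checked. The number of arrays limits the precision. Gene names came from GEO's annotation of the chips, updated through the Entrez number to RefSeq (GRCr8), where all 301 members matched. One probe set with several symbols (Trpv1 and Trpv4) was left out of the members. Each chip was fitted with limma 3.58.1 in R 4.3.3 (lmFit, eBayes with an intensity trend, two-sided) on the authors' scaling with no pseudocount, after leaving out probe sets under the 30th percentile of the mean linear value. The test was checked on simulated data, where recovery was required only for changes far larger than any among the channels. That check does not bear on changes of the size seen here.

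Members, subfamilies, the panel and the lists were chosen with earlier results of these data known. Genes named were any called member, the brightest member and the one with the smallest p in each subfamily and chip, and a panel of 42 genes described in PC12 or chromaffin cells, of which 38 had a probe set and 28 were tested. Kcna6, Trpc4ap, Cacng7, the chip A values of Cacnb1, Kcnc4 and Kcnt1, and the chip B value of Grin3b fall outside this rule. They were chosen after their values were seen, as were the untested probe sets named. The alternatives were quantile normalization, median centring, no filter, a filter at the 50th percentile, eBayes without a trend, the replicate number as a block, and each array left out. The 53 channel genes without a promoter window are not analysed here for motifs.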

Additional observations from a re-analysis of the deposited data

How the results depend on the processing

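The count of called channel probe sets was 0 in both directions on both chips under quantile normalization, without a filter, with the filter at the 50th percentile, by eBayes without a trend and with the replicate number as a block. With median centring 1 was called higher on chip A (Clcn2). Leaving out 1 array gave 0 to 1 higher and 0 lower on chip A, and 0 on chip B. The median change on chip A (0.0035) was 0.013 without a filter and 0.0057 to 0.017 with 1 array left out. On chip B (0.017) it was 0.042 with median centring, -0.019 without a filter and -0.026 to 0.042 with 1 array left out, which includes both signs. Among 74 named tested probe sets the call changed in 2 of 709 refits, both for Clcn2, and the sign of an uncalled change turned in 64 refits of 33 probe sets. Taking each gene by its smallest p gave 0 called genes on either chip. That count follows from the 0 called probe sets and is no further check.

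The replicate numbers do not pair the arrays by any label: same-numbered arrays deviated together at r = 0.0034 on chip A and 0.197 on chip B across probe sets. The replicate block called 0 channel probe sets, with adjusted p = 0.107 for Clcn2, and 205 of all probe sets on chip A, against 366 without it. Counts above 0 by subfamily were recomputed after they were seen: 9 to 10 of 10 for auxiliary calcium subunits, 9 to 11 of 12 for voltage-gated potassium and 0 to 1 of 5 for P2X, leaving aside the stricter filter, which tested fewer. Dimness limits coverage: 87 of 198 genes had no tested probe set, and the intervals, from 2 arrays per group, were wider on chip B than on chip A.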
